A study of Mus musculus with 47 samples.

Results

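Akr1c14, Greb1, Olfm2, Slco2a1, Gria1, Aff3 and Slc15a2 are 7 genes that were chosen by their joint decrease on a high-fat diet, measured in mouse muscle stem cells. They are 7 of 17097 mouse genes with a probe set of 1 symbol on the array, and all 7 are among the 10258 genes bright enough to be tested. The values that chose them were the differences between the diets, so those differences are given here as a description with no test. They are described as hormone-responsive for what is known of some of them, and no hormone was measured in these mice.

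The study asked how the daily course of expression in muscle stem cells compares between diets. All mice were wild-type C57B6/J females that started on a high-fat diet or its matched control diet at 8 weeks of age and stayed on it for 7 weeks, to an age of 15 weeks, eating freely. Cells labelled as muscle stem cells, also called satellite cells, were taken at zeitgeber times (ZT) 0, 4, 8, 12, 16 and 20 from 4 mice per diet and time, except that 3 mice represent the high-fat diet at ZT16. RNA of each mouse was hybridised to 1 Affymetrix array, giving 24 control and 23 high-fat arrays. Both diets of a time were collected on 1 day, so each diet contrast lies within a day, while time and day cannot be told apart within a diet. Neither the composition of the diets nor the way the cells were purified is stated in the labels.

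Steroid hormones such as oestradiol enter cells and bind nuclear receptors, which attach to short response elements in DNA and change the transcription of nearby genes. Oestrogen receptor alpha and its targets are best known from breast and uterus, and skeletal muscle and its stem cells also carry the receptor. Greb1 is an oestrogen-induced gene whose product acts with the oestrogen receptor. Akr1c14 encodes an aldo-keto reductase that reduces and oxidises steroids, so it acts on hormone supply rather than on the response. Slco2a1 encodes the prostaglandin transporter, which carries prostaglandins into cells. Slc15a2 encodes a peptide transporter that takes up di- and tripeptides together with protons. Olfm2 encodes a secreted glycoprotein with an olfactomedin domain. Gria1 encodes a subunit of the AMPA-type glutamate receptor. Aff3 encodes a nuclear protein of the AF4 family, relatives of which serve in complexes that promote transcription elongation.

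All arrays had similar medians, between 5.86 and 5.94 on the log2 scale of the deposited values, and the lowest single value was 2.13. The satellite cell transcripts Pax7 (mean log2 value 10.9), Myf5 (10.6) and Sdc4 (12.3) were bright, where genes from 5.80 were tested. Of 8 immune markers Cd68 (8.63) and Cd74 (6.38) were above that limit and the other 6 below it, with Ptprc at 3.85. The endothelial genes Cdh5 (6.92) and Pecam1 (6.72), the myofibre gene Acta1 (6.53) and the fibroblast gene Dcn (10.2) were above it as well. So were the endothelial gene Tek (9.19) and the fibroblast genes Col3a1 (11.31) and Dpt (11.38). All 6 smooth muscle and pericyte markers on the array were above it, from Kcnj8 (6.55) to Acta2 (10.93) and Notch3 (11.39). The 3 Schwann cell markers ran from Mag (6.14) to Mbp (9.22). Of the erythroid markers Alas2 (5.28) was below the limit. Dpt, Col3a1, Notch3, Acta2 and the erythroid gene Hba-a2 were as bright as Pax7 or brighter. Of 7 fibroblast markers on the array 4 were tested, and Pdgfra (4.37), Lum (5.07) and Pi16 (5.49) were below the limit. In such bulk samples fewer cells of a type and less RNA per cell cannot be told apart.

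The start regions of Greb1 and Olfm2 are printed because these genes were the most closely correlated pair between mice, and that of Akr1c14 because its diet difference was the largest; RefSeq gives them on the build GRCm38.p6 as windows of 300 bases, 250 before and 50 after an annotated start, 5′ to 3′ along the gene. Capitals mark the half-site of an oestrogen response element (GGTCA, or TGACC on the other strand). Greb1 has 2 annotated starts, at chr12:16800837-16801136 and chr12:16757190-16757489 on the minus strand. Olfm2 has 3, of which the farthest upstream is chr9:20746247-20746546 on the minus strand, and Akr1c14 has 1, at chr13:4059341-4059640 on the plus strand.
Greb1, upstream start: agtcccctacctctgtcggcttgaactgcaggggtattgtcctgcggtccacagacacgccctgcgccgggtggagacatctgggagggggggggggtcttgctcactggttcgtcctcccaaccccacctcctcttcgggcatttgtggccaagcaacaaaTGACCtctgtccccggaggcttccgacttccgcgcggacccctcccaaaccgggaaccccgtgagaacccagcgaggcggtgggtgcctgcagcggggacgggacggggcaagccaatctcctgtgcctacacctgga
Greb1, downstream start: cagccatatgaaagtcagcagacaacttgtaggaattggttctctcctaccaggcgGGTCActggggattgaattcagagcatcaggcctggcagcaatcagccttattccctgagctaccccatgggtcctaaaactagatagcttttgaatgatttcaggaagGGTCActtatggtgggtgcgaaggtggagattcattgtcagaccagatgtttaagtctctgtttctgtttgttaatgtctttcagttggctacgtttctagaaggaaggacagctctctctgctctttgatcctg
Olfm2, upstream start: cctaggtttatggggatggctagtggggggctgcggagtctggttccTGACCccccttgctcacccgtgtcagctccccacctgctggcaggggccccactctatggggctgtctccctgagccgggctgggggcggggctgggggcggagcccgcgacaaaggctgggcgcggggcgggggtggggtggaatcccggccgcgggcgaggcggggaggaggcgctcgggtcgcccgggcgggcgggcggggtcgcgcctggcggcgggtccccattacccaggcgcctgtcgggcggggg
Akr1c14: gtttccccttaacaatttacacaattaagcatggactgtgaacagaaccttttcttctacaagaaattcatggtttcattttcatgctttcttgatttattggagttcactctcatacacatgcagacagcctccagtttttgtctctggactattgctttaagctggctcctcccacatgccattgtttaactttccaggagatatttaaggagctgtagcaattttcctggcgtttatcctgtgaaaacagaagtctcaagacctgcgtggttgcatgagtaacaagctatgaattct

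The upstream Greb1 window holds 1 half-site, 88 bases before the start, and the downstream window holds 2, at 194 and 85 bases before it. The upstream Olfm2 window holds 1, at 203 bases before the start. RefSeq windows were found for 6 of the 7 genes, 9 windows in all, and 4 of the 9 held a half-site, against 40.5% of all 32851 mouse windows of this length. The full element GGTCANNNTGACC was in 0 of the 9 windows and in 0.07% of all windows, and with 1 mismatch allowed these were 0 of 9 and 0.877%. The palindrome GNACANNNTGTNC of androgen and glucocorticoid receptors was in 0 of the 9 and in 0.475% of all. With 1 mismatch it was in 1, that of Slc15a2, and in 9.43% of all. Both strands were searched, and each full oestrogen element also counts as half-sites. These are letter matches in short windows, and no binding was measured. No window for Gria1 was used.

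Averaged over the 6 times, Akr1c14 was the gene with the largest decrease of all tested genes, at 7.25 in the control and 6.22 in the high-fat mice (-1.04 ± 0.23, SE, 24 and 23 mice, or 2.05-fold). Gria1 ranked 2 at -0.84 ± 0.17, Greb1 3 at -0.70 ± 0.22 and Olfm2 4 at -0.69 ± 0.18. Slco2a1 ranked 6 at -0.63 ± 0.16, Aff3 12 at -0.50 ± 0.17 and Slc15a2 16 at -0.45 ± 0.44. These averages chose the genes. Of all 10258 genes 6.8% were lower and 4.7% higher on the high-fat diet at an adjusted p under 0.05 (limma, Benjamini-Hochberg), and nothing is read from that for the 7. None of the 7 was lower at all 6 times: Akr1c14, Greb1, Olfm2, Slco2a1, Gria1 and Aff3 were lower at 5 times and higher at ZT4, and Slc15a2 was lower at 2.

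**Figure D1:**
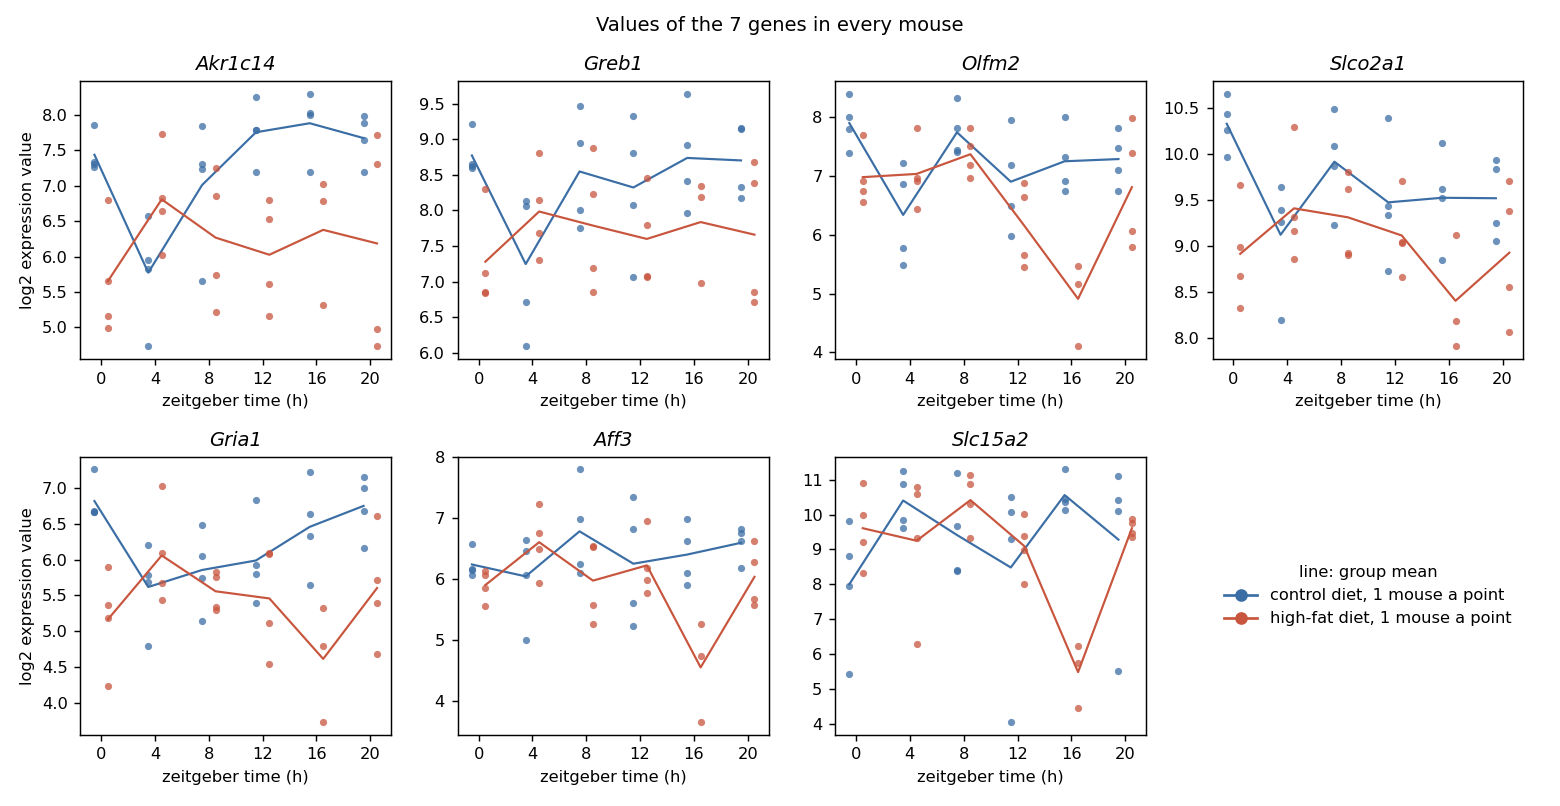
Log2 expression of each of the 7 genes in every mouse (points, 24 control and 23 high-fat) against zeitgeber time in hours, with lines through the group means and a small sideways shift of the diets. The control mice of ZT4 lie low for Akr1c14, at 4.74 to 6.57, and the 3 high-fat mice of ZT16 lie low for Slc15a2, at 4.45 to 6.23.

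At ZT0 the control values of Akr1c14 were 7.26, 7.30, 7.86 and 7.33 and the high-fat values 5.66, 5.16, 6.80 and 4.99, a difference of -1.78 ± 0.54 or 3.44-fold. Every high-fat mouse was below every control mouse. At ZT12 the control mice had 7.78, 8.26, 7.19 and 7.79 and the high-fat mice 5.16, 6.80, 5.61 and 6.53, again without overlap (-1.73 ± 0.54, 3.31-fold). At ZT4 the order turned: the control mice had 6.57, 5.83, 5.95 and 4.74 and the high-fat mice 7.73, 6.65, 6.83 and 6.02, a difference of 1.04 ± 0.54 with overlapping groups. The ZT4 group was the lowest of the 6 control groups for Akr1c14, with a mean of 5.77, and the others had means of up to 7.88. At ZT20 the high-fat mice were split, with 4.98 and 4.73 in one pair and 7.72 and 7.31 in the other.

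Greb1 had 8.62, 8.60, 9.22 and 8.65 in the control mice of ZT0 and 6.86, 7.12, 8.30 and 6.84 in the high-fat mice, a difference of -1.49 ± 0.52 or 2.81-fold. The groups did not overlap at ZT0 and overlapped at each of the other times, where the differences ran from -1.05 at ZT20 to 0.74 at ZT4. At ZT4 the control mice had 8.13, 8.06, 6.71 and 6.09 and the high-fat mice 8.80, 7.31, 8.15 and 7.68. The lowest control mice were below all high-fat mice of that time and the other control mice lay among them.

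Slco2a1, the prostaglandin carrier, was at 10.66, 9.97, 10.26 and 10.44 in the control mice of ZT0 and at 8.68, 8.99, 9.67 and 8.33 in the high-fat mice (-1.42 ± 0.38, 2.67-fold), with no overlap. At ZT16 it was at 9.52, 8.85, 10.12 and 9.62 against 9.12, 8.19 and 7.91 (-1.12 ± 0.41), where 1 high-fat mouse reached into the control range. Its difference at ZT4 was 0.29 ± 0.38, smaller than its standard error.

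Gria1 differed without overlap at ZT0 and ZT16. At ZT0 the control mice had 7.26, 6.66, 6.68 and 6.67 and the high-fat mice 5.36, 4.23, 5.89 and 5.18 (-1.65 ± 0.41, 3.14-fold). At ZT16 they had 6.64, 5.64, 7.22 and 6.33 against 4.79, 5.32 and 3.73 (-1.85 ± 0.45, 3.59-fold). The gene was the dimmest of the 7 with a mean of 5.85, just above the 5.80 at which genes were tested. Its high-fat mean, 5.41, lies below that limit and its control mean, 6.25, above it, so it was tested through the control mice.

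Olfm2 and Aff3 had their largest differences at ZT16. Olfm2 was at 7.33, 6.75, 8.00 and 6.92 in the control mice and at 5.16, 5.47 and 4.10 in the high-fat mice (-2.34 ± 0.47, 5.06-fold). Aff3 was at 6.62, 5.90, 6.99 and 6.11 in the control mice and at 5.26, 4.75 and 3.66 in the high-fat mice (-1.85 ± 0.44, 3.60-fold). Neither gene had overlapping groups at ZT16, and both overlapped at each of the other 5 times. Without the ZT16 mice the averaged difference was -0.36 for Olfm2 in place of -0.69 and -0.24 for Aff3 in place of -0.50. High-fat mouse 3 of ZT16 was the lowest of all 47 mice for Olfm2, Gria1, Aff3 and Slco2a1.

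Slc15a2 followed another course. At ZT16 the control mice had 10.14, 11.30, 10.37 and 10.44 and the high-fat mice 6.23, 4.45 and 5.75, a difference of -5.09 ± 1.14 or 34.0-fold. At ZT0, ZT8, ZT12 and ZT20 the high-fat mean was the higher, by 1.61 ± 1.06, 1.00 ± 1.06, 0.61 ± 1.06 and 0.33 ± 1.06. Without the 7 mice of ZT16 the averaged difference turned to 0.48, so its decrease rests on that time. The 47 mice fell into separate clusters, 7 mice from 4.04 to 6.29 and 40 mice from 7.94 to 11.3. The low cluster held the 3 high-fat mice of ZT16, 1 high-fat mouse of ZT4 (6.29), and single control mice of ZT0 (5.43), ZT12 (4.04) and ZT20 (5.51). The gap between the clusters was 1.64, and the largest gap of the other 6 genes was 1.09. The 4 low mice outside ZT16 differed in the other genes. The high-fat ZT4 mouse was the highest of its group in all 6, at 7.73 for Akr1c14, 8.8 for Greb1, 7.82 for Olfm2, 10.3 for Slco2a1, 7.03 for Gria1 and 7.23 for Aff3. Control mouse 3 of ZT12 was the lowest of its group in all 6, at 7.19 for Akr1c14, 7.07 for Greb1, 5.98 for Olfm2, 8.73 for Slco2a1, 5.39 for Gria1 and 5.24 for Aff3.

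Counted over the 7, no overlap with the high-fat mice all below was seen for 4 genes at ZT0 (6.16% of all tested genes), 0 at ZT4 (2.28%), 0 at ZT8 (5.87%), 1 at ZT12 (3.28%), 5 at ZT16 (15.8%) and 0 at ZT20 (4.04%). At ZT4 0 of the 7 had all high-fat mice above all control mice, against 3.1% of all genes. The choice of the genes used these contrasts, so the counts describe them and no more. At ZT16 the 3 high-fat mice were below all control mice for many genes of the array.

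**Figure D2:**
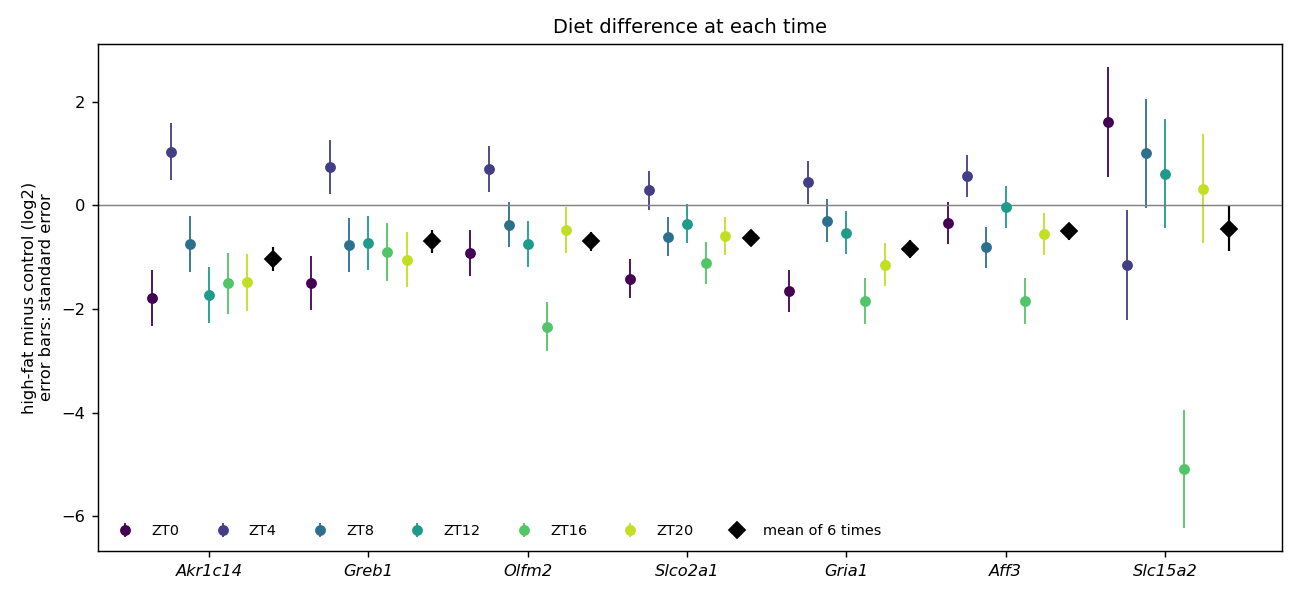
Difference between diets (high-fat minus control, log2, with standard errors from limma) for each gene at the 6 times (circles) and averaged over them (diamonds). The first 6 genes have the ZT4 value above 0 and the other 5 below it, and Slc15a2 is at -5.09 at ZT16.

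No p-value is given for a change of the difference with time or for a rhythm that differs between diets, because both rest on the differences that chose the genes. A 24 h cosine course was tested within each diet. It is fitted to the same values whose diet differences chose the genes, so it is not free of that choice. On the control diet Akr1c14 alone of the 7 passed, with an amplitude of 0.87 ± 0.23 and a peak at 16.4 h (adjusted p = 0.0286, limma), where 10.5% of all genes passed. Gria1 had an amplitude of 0.58 ± 0.18 (adjusted p = 0.0637, limma). On the high-fat diet Olfm2 alone passed, with an amplitude of 0.88 ± 0.23 and a peak at 3.67 h (adjusted p = 0.018, limma), where 16.9% of all genes passed. So 1 of 7 on each diet is near the share of all genes. With the day of collection as a random block neither passed, at adjusted p = 0.248 for Akr1c14 and 0.0907 for Olfm2 (limma). The adjusted p was 0.444 for Akr1c14 without the ZT4 mice and 0.441 for Olfm2 without the ZT16 mice (limma). ZT16 is also the time of the largest diet difference of Olfm2 (-2.34). Akr1c14 also lost its call without control mouse 2, 3 or 4 of ZT4 or control mouse 1 of ZT8, and Olfm2 lost its call without high-fat mouse 1 or 3 of ZT16.

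Deviations from the group means do not enter the diet differences, and they describe whether the genes go together from mouse to mouse. A choice by a joint decrease can still favour genes that vary together between mice. The correlations and their p-values are therefore not free of that choice. Of the 7 genes 6 went together. Over the 47 mice the 15 pairs without Slc15a2 had Pearson r from 0.56 to 0.912 with a median of 0.757, and Spearman rho from 0.536 to 0.905. The highest adjusted p of these 15 was 0.00137 (two-sided permutation of mice within groups, Benjamini-Hochberg over 21 pairs), and the lowest, 2.1e-05, comes from 1e-05, the smallest p the permutations can give. Greb1 and Olfm2 were the closest pair (r = 0.912, rho = 0.905, adjusted p = 2.1e-05 by permutation). Greb1 with Slco2a1 had r = 0.864, with Akr1c14 0.818 and with Aff3 0.814. Gria1 was the loosest of the 6, with r = 0.653 to Aff3 and 0.56 to Akr1c14.

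Single groups show the pattern in the values themselves. In the high-fat mice 1 to 4 of ZT20, Akr1c14 was at 4.98, 7.72, 4.73 and 7.31, Greb1 at 6.86, 8.38, 6.72 and 8.68, Olfm2 at 6.06, 7.39, 5.80 and 7.99, and Slco2a1 at 8.07, 9.38, 8.56 and 9.71. Mice 1 and 3 were low and mice 2 and 4 high for each of these 4 genes, and the same held for Aff3 (5.58, 6.28, 5.68 and 6.62) and Gria1 (4.68, 6.61, 5.40 and 5.72). In the high-fat mice of ZT8, mice 1 and 2 were low and mice 3 and 4 high for Akr1c14 (5.22, 5.74, 7.25 and 6.86), Greb1 (6.85, 7.19, 8.88 and 8.23) and Aff3 (5.58, 5.26, 6.53 and 6.54). Gria1 did not follow there, with 5.83, 5.34, 5.76 and 5.30. Control mouse 4 of ZT4 was the lowest of its group for all 6 genes, at 4.74 for Akr1c14, 6.09 for Greb1, 5.49 for Olfm2, 8.20 for Slco2a1, 4.79 for Gria1 and 5.01 for Aff3. Its Slc15a2, at 10.87, was the second highest of that group.

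The relations held within each diet, with r from 0.434 to 0.89 over the 24 control mice and from 0.533 to 0.935 over the 23 high-fat mice. Akr1c14 with Olfm2 had r = 0.495 in the control mice and 0.886 in the high-fat mice, and whether these differ was not tested. For each pair, r was also taken without the 2 mice farthest from the median of the deviations of its first-listed gene. The 15 pairs then had r from 0.529 to 0.914. The mice left out can differ between pairs, and extreme mice of the other gene stayed in. Part of this was shared with many genes: the first principal component of all tested genes within groups, 7.12% of their variance, had r of 0.552 to 0.806 in size with the 6 genes. With it removed the 15 pairs had r from 0.246 to 0.8 with a median of 0.566. Of all 52608153 pairs of tested genes, which had a median r of 0.012, 0.213% reached 0.56. Slc15a2 was not part of the pattern: within its upper cluster of 40 mice its r with the other 6 was between 0.0806 and 0.203 (adjusted p from 0.35 to 0.66, permutation).

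**Figure D3:**
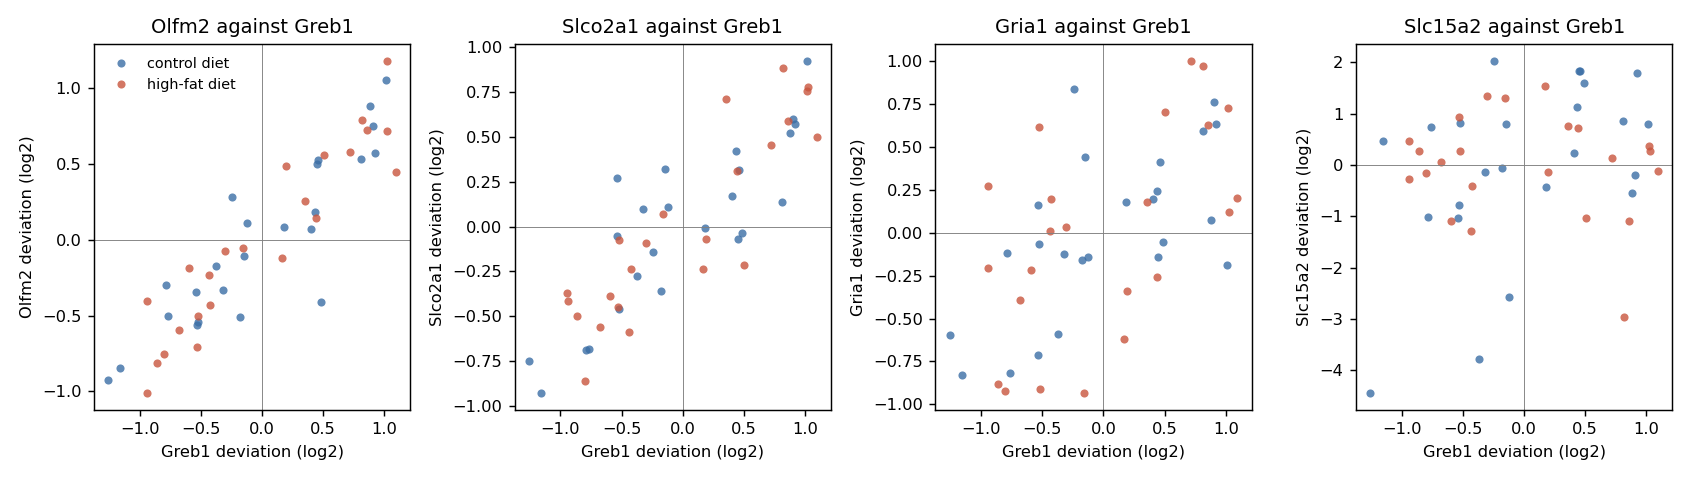
Deviation of each of the 47 mice from its group mean (log2) for Olfm2, Slco2a1, Gria1 and Slc15a2 on the vertical axes against Greb1 on the horizontal axes, by diet. The points rise along the diagonal for Olfm2 (r = 0.912) and Slco2a1 (r = 0.864), scatter more for Gria1 (r = 0.594) and show no such line for Slc15a2, where a few mice lie far below.

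A fit of every other gene on the deviation of 1 of the 7 gave the share of the array that goes with it. For the 7 themselves these fits have the same limit from the choice. Greb1 as covariate was followed by 153 of 10257 genes in the same direction (1.49%), and by 5 of the other 6. Per SD of the Greb1 deviation Olfm2 was higher by 0.60 ± 0.05 (adjusted p = 4.84e-12, limma), which was rank 1 among all genes. Slco2a1 was at rank 3 (0.48 ± 0.05, adjusted p = 3.01e-09, limma), Akr1c14 at rank 6 (0.67 ± 0.08, 1.99e-07) and Aff3 at rank 7 (0.49 ± 0.06, 2.55e-07). Gria1 was at rank 55 (0.37 ± 0.08, 0.0058).

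The other fits gave the same picture. Each of the other 5 was called with Akr1c14 as covariate (0.712% of all genes), with Olfm2 (1.83%), with Slco2a1 (1.74%), with Gria1 (0.526%) and with Aff3 (1.08%). Slc15a2 was called in none of these fits. As covariate itself it was followed by 0 of 10257 genes (0%) and 0 of the 6 at the adjusted threshold in limma. At an unadjusted p under 0.05, 426 genes were higher with it, and 0 of the 6 members.

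The spread between mice of a group was itself large for these genes. They are among the largest log2 decreases of the array, and a choice by such differences can favour genes with a large spread. The within-group SD was 0.81 for Akr1c14, 0.78 for Greb1, 0.66 for Olfm2, 0.62 for Gria1, 0.60 for Aff3 and 0.56 for Slco2a1, where the median of all tested genes was 0.19. Only 5 genes had a larger SD than Akr1c14 and 46 a larger one than Slco2a1. Slc15a2 had the largest of all, 1.58.

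Several genes had more than 1 probe set, 15 in all. The 4 of Greb1 differed alike, by -0.53 ± 0.16, -0.70 ± 0.22, -0.97 ± 0.23 and -0.80 ± 0.19, and within groups the 3 others had r of 0.836 to 0.916 with the brightest. The 3 of Slco2a1 differed by -0.63 ± 0.16, -0.67 ± 0.17 and -0.76 ± 0.20, with r of 0.983 and 0.909. The second probe set of Gria1 was dim (mean 4.45) and differed by -0.14 ± 0.07, lower at 3 of 6 times, with r = 0.717 to the first. The other probe sets of Slc15a2 were dim, at 5.16 and 4.52, and differed by -0.04 ± 0.03 each, with r of -0.0344 and 0.0659 to the bright one. The low cluster of Slc15a2 is therefore seen by 1 probe set only. Akr1c14, Olfm2 and Aff3 have 1 probe set each.

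The genes whose deviations were most like the mean deviation of the 7 over the 47 mice (each scaled to unit SD) were found among 10251 others. Ephx1, an epoxide hydrolase, led with r = 0.931, followed by Trabd2b (0.86), the carbonic anhydrase Car12 (0.836), the lipoprotein receptor Vldlr (0.817), the TGF-beta co-receptor Tgfbr3 (0.796), Drp2 (0.793), the amino acid transporter chain Slc3a2 (0.787) and Hs6st3 (0.772). At the other end were the sphingosine phosphate receptor S1pr3 (-0.808), the sorting receptor Sorl1 (-0.758), Ltbp1 (-0.725), which binds latent TGF-beta, and the potassium channel Kcnn3 (-0.723). In all 24 genes had r above 0.7 and 8 below -0.7, and the median gene had 0.01. These genes were picked by deviations within groups, not by their own diet difference. They were picked through the 7, which diet chose, so their diet differences can follow those of the 7.

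**Figure D4:**
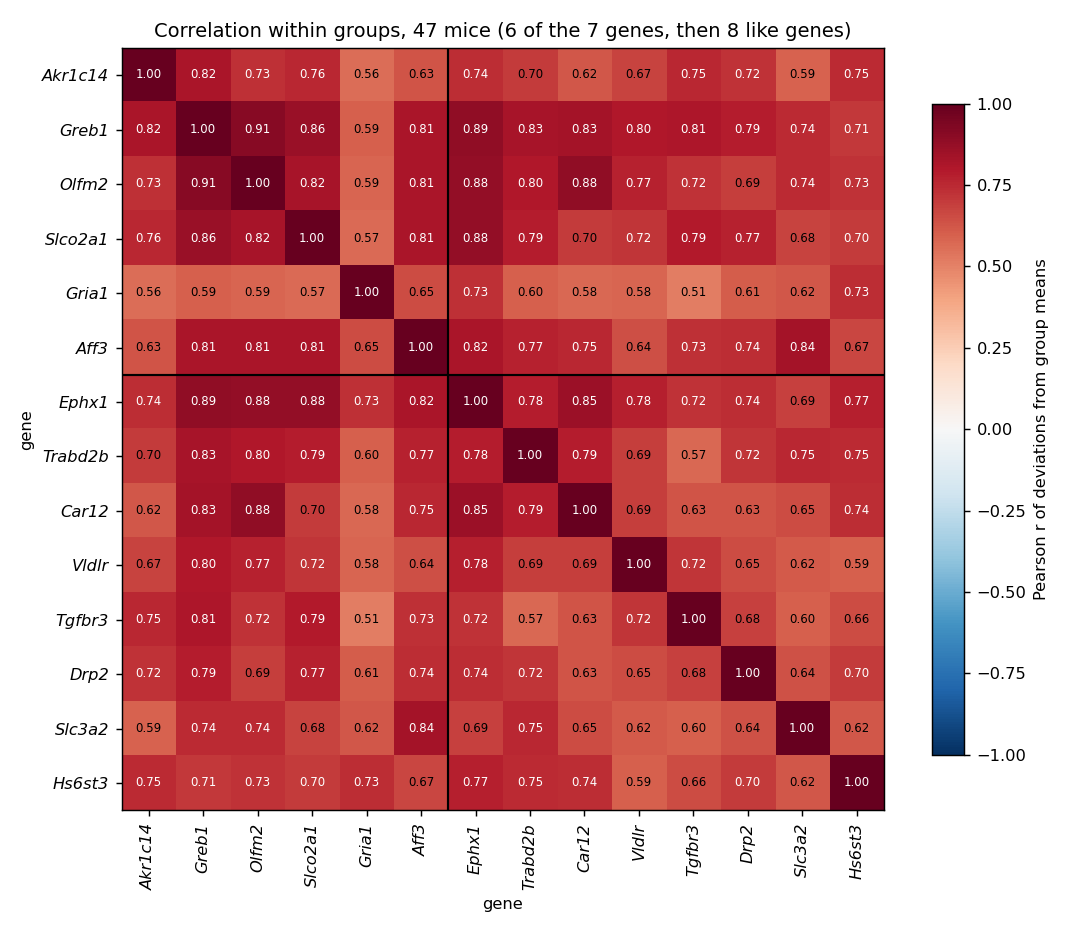
Pearson r between the deviations from group means over 47 mice for Akr1c14, Greb1, Olfm2, Slco2a1, Gria1 and Aff3 (first 6 rows) and the 8 genes most like the 7 (below the line), colour from -1 to 1. The 6 genes correlate with each other between 0.56 and 0.912, and Slc15a2, whose mice fall into clusters, is left out.

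Of these 8 genes 4 were lower on the high-fat diet at an adjusted p under 0.05 (6.8% of all genes), each by less than any of the 7. Ephx1 differed by -0.24 ± 0.07 (adjusted p = 0.0252, limma) and was lower at 5 of 6 times. Slc3a2 differed by -0.15 ± 0.04 (adjusted p = 0.00783, limma), lower at 6 of 6 times. Drp2 (-0.16 ± 0.05, adjusted p = 0.0235) and Hs6st3 (-0.26 ± 0.08, adjusted p = 0.0337) also passed in limma. Car12 (-0.37 ± 0.18, 0.174), Trabd2b (-0.23 ± 0.13, 0.256), Vldlr (-0.18 ± 0.08, 0.144) and Tgfbr3 (-0.003 ± 0.026, 0.955) did not pass. Of the 4 genes that ran opposite, 3 were higher (4.7% of all genes): Ltbp1 by 0.29 ± 0.05 at all 6 times (adjusted p = 0.000442, limma), Sorl1 by 0.38 ± 0.10 (0.00868) and Kcnn3 by 0.27 ± 0.08 (0.0263), while S1pr3 had 0.15 ± 0.06 (0.0854). Because all 12 share the same mice and move together in them, their calls are not independent of each other. Nor are they independent of the choice of the 7, whose deviations picked them. The count of 4 was 0 without the ZT0 mice, 1 without the ZT16 mice and 2 without those of ZT20 or without high-fat mouse 3 of ZT16.

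**Figure D5:**
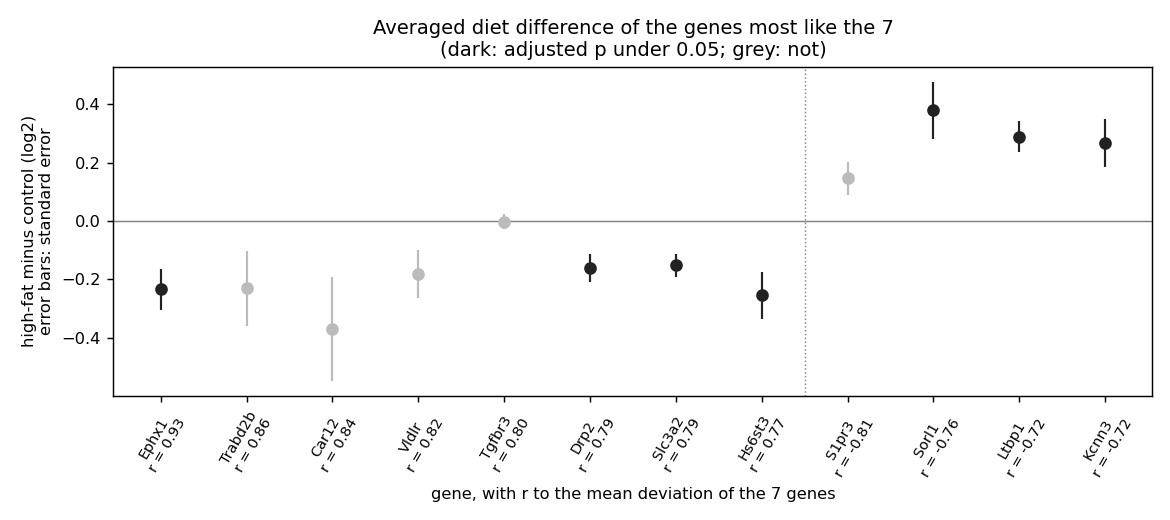
Averaged diet difference (high-fat minus control, log2, with standard error) of the 8 genes most like the 7 and, right of the dotted line, the 4 most opposite. Dark points passed an adjusted p of 0.05: 4 on the left lie below 0 and 3 on the right above it.

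The genes that hormone response and the families of the 7 would bring to mind were set beside them. Of 17 tested genes known to respond to oestrogen, 0 were lower and 1 was higher on the high-fat diet, Ret, a receptor kinase (0.40 ± 0.11, adjusted p = 0.0129, limma); their median difference was 0.01, against -0.01 for all genes. Ccnd1 (0.09 ± 0.08), Myc (-0.03 ± 0.02), Igfbp4 (0.07 ± 0.04) and Xbp1 (0.03 ± 0.04) did not pass. With Greb1 as covariate 1 of the 17 was higher, Wnt4 (0.13 ± 0.03 per SD, adjusted p = 0.0211, limma), and 1 lower, Ret (-0.20 ± 0.05, 0.0345), and the other 15 passed in neither direction. Of 9 steroid receptors and cofactors 1 was higher, Ncoa1 (0.14 ± 0.04, adjusted p = 0.0106, limma), and 0 lower, and 0 went with Greb1. The oestrogen receptor Esr1 was bright at 10.3 and differed by 0.02 ± 0.04. Within groups Esr1 had r = -0.48 with Greb1 (adjusted p of the fit 0.0676, limma) and the cofactor Nrip1 0.43 (0.128). Neither passed. Of 5 androgen-responsive genes Smox was higher (0.19 ± 0.05, adjusted p = 0.0137, limma) and 0 lower. List means were also set against each of the 7 but Slc15a2 within groups. The mean of the 17 oestrogen-responsive genes had r of -0.5 (Akr1c14) to -0.086 (Gria1). That of the 5 androgen-responsive genes had -0.5 (Greb1) to -0.098 (Gria1), and that of the 9 receptors and cofactors -0.18 (Aff3) to 0.26 (Gria1). These r were not tested.

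Of 9 steroid-metabolising enzymes 0 passed in either direction for diet in limma, and Hsd11b1, which regenerates active glucocorticoid, was lower with Greb1 (-0.09 ± 0.02 per SD, adjusted p = 0.0253). The closest relatives of Akr1c14 were mostly below the limit. Akr1c12, at 5.96, was tested and differed by 0.03 ± 0.03. Of 14 genes of prostaglandin synthesis, signalling and transport 1 was higher, the receptor Ptger4 (0.22 ± 0.06, adjusted p = 0.0177, limma), and 0 lower; the relatives of Slco2a1 were at -0.10 ± 0.10 for Slco2b1, 0.02 ± 0.13 for Slco3a1 and 0.03 ± 0.03 for Slco4a1. Of 13 genes of glutamate receptors and their partners 1 was higher, Cacng7, an AMPA receptor partner (0.21 ± 0.06, adjusted p = 0.0179, limma), and 0 lower. The other AMPA subunits tested were at 0.02 ± 0.02 for Gria2 and -0.07 ± 0.03 for Gria4.

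Of 8 genes of the AF4 family and its elongation complexes 0 passed in either direction in limma, with Aff1 and Aff4 at differences of 0 to 2 decimals. Of 6 peptide transporters and peptidases 1 was higher, Dpp7 (0.16 ± 0.04, adjusted p = 0.0189, limma), and Slc15a3 was at -0.04 ± 0.03. Of 5 tested olfactomedin relatives of Olfm2, Olfm1 (0.25 ± 0.08, adjusted p = 0.0441, limma) and Olfml2a (0.22 ± 0.06, 0.00946) were higher on the high-fat diet and 0 lower, while Olfml1 (-0.06 ± 0.09, 0.742) and Olfml3 (0.09 ± 0.04, 0.121) did not pass. The call of Olfm1 was lost when any of 24 of the 47 mice was left out. With Greb1 as covariate 3 of the 5 were lower, where 1.16% of all genes were: Olfml2b by -0.18 ± 0.03 per SD (adjusted p = 0.000476, limma), Olfm1 by -0.17 ± 0.04 (0.0125) and Olfml2a by -0.10 ± 0.03 (0.0401).

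Markers of the cells themselves were read beside these results. Of 9 tested satellite cell markers 4 were higher on the high-fat diet and 0 lower: Heyl (0.18 ± 0.03, adjusted p = 0.000658, limma), Calcr (0.27 ± 0.07, 0.00868), Pax7 (0.11 ± 0.03, 0.0169) and Vcam1 (0.15 ± 0.05, 0.0477). The call of Vcam1 was lost when any of 30 of the 47 mice was left out. The mean of the 9 ran from 9.91 to 10.1 over the control mice and from 9.90 to 10.4 over the high-fat mice. With Greb1 as covariate 1 of the 9 was lower, Myf5 (-0.09 ± 0.02 per SD, adjusted p = 0.0203, limma), and 0 higher. Their mean as a whole ran against the 6 genes that go together, with r within groups from -0.737 (Olfm2) to -0.597 (Aff3) and rho from -0.761 to -0.651. The highest adjusted p of r was 0.00064 (permutation within groups, Benjamini-Hochberg over 24 pairs of a marker list and a gene). Without the 2 mice farthest from the median in the list mean r was -0.733 to -0.597. It was -0.73 to -0.489 in the control mice and -0.797 to -0.638 in the high-fat mice. Such an r was not particular to these markers. The mean of the olfactomedin relatives had r of -0.75 (Greb1) to -0.5 (Gria1) with the 6 genes. The mean of the prostaglandin genes had -0.61 (Slco2a1) to -0.28 (Gria1), and that of the AF4 list 0.13 (Gria1) to 0.34 (Greb1). Those r were not tested. Of 4 tested fibroblast markers 2 were higher on the high-fat diet, Dpt (0.13 ± 0.04, adjusted p = 0.0156, limma) and Col3a1 (0.11 ± 0.04, 0.049), of which the Col3a1 call was lost when any of 33 of the 47 mice was left out. Dpt was lower with Greb1 (-0.08 ± 0.02, 0.00232), and their mean ran from 9.95 to 11.1 and from 10.2 to 11.4. The r of their mean with the 6 genes was -0.269 to -0.1 (lowest adjusted p 0.202, permutation). Of 4 tested endothelial markers, which matter for Slco2a1 because endothelium also carries prostaglandin transporters, 0 passed for diet or with Greb1 in limma. Their mean ran from 7.12 to 8.89 over the control mice and from 6.89 to 7.75 over the high-fat mice, and Kdr, Emcn, Cldn5 and Vwf were below the limit. The r of the endothelial mean with the 6 genes was -0.219 to 0.0802 (lowest adjusted p 0.176, permutation). Of 6 tested myofibre markers 0 passed for diet or with Greb1 in limma, with means from 5.83 to 6.75 and from 5.97 to 6.46. The r of the myofibre mean with the 6 genes was -0.461 (Aff3) to -0.248 (Akr1c14), with rho from -0.471 to -0.233, and Aff3 (adjusted p 0.0104), Olfm2 (0.0421) and Greb1 (0.0488) passed by permutation for r. Without the 2 farthest mice r was -0.42 to -0.191, in the control mice -0.701 to -0.337 and in the high-fat mice -0.244 to 0.0919. The part of any of these in the results was not tested.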

How the data were processed

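Expression was measured on Affymetrix mouse arrays from 47 mice. Each deposited value is the log2 signal of a probe set, which the authors computed with RMA, per the submitters' processing notes; version and settings: not given in the sources used here. RNA was amplified for 17 cycles from 25 ng, per the labels' protocols. Of 45141 probe sets, 28898 had 1 gene symbol, 551 several and 15692 none, and 28689 of the symbols were matched by gene ID. The brightest probe set by mean stood for each of 17097 genes, and genes at or above the 40th percentile of means, 5.80, were tested. No values were renormalised. Models were fitted with limma 3.58.1 in R 4.3.3 (lmFit, eBayes with trend) on all 10258 genes, with 12 group means, with a cosine and sine of 24 h, or with group means and the scaled deviation of 1 gene. Adjusted p-values are Benjamini-Hochberg over all genes tested, with a threshold of 0.05. Correlations used deviations from group means and 1e+05 permutations of mice within groups. The fits were tested on simulated data. Precision is limited by the number of arrays. The genes and lists were chosen with earlier results of these data known. Named genes are the 7 and the 8 most and 4 least like them by within-group deviation. Of each list the genes past the threshold (up to 4 by p), relatives of the 7 and defining markers are named. Ccnd1, Myc, Igfbp4, Xbp1, Esr1, Nrip1, Tek, Kcnj8, Acta2, Mag and Alas2 were added after their values were seen. The planned tests of diet by time and of a rhythm difference between diets rest on the differences that chose the genes and are not given. Means of marker lists and of other lists were correlated with the genes after the data were seen. Sequences are RefSeq's. Alternatives were other normalization, filters, probe set choices, weights, blocks, left-out mice and left-out times.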

Additional observations from a re-analysis of the deposited data

Results flagged for a closer look

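In 3 of 77 combinations of a gene and a group of 4 mice, 1 mouse stood apart from the other 3 by Dixon's criterion, where chance flags about 1 in 20. Control mouse 3 of ZT0 had the highest value for Akr1c14, 7.86 against 7.26 to 7.33 in the others, and for Greb1, 9.22 against 8.60 to 8.65. Control mouse 1 of ZT0 had the highest value for Gria1, 7.26 against 6.66 to 6.68. In each case the other 3 mice lay very close together, and all 4 were above the high-fat mice of ZT0.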

How the results depend on the processing

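The count of genes with a rhythm on the control diet, 1, became 0 with the 60th percentile as filter (which leaves 4 of the 7 tested), with the collection day as block and without the ZT4 or ZT16 mice, 2 with time as a factor, and 0 to 2 without 1 mouse. The high-fat rhythm count of 1 became 2 with array weights, 0 with the day block, 3 with time as a factor, 2 without the ZT12 mice, 0 without ZT16, 3 without ZT20, and 0 to 2 without 1 mouse. The cause was not tested.

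The median averaged difference of the 7, -0.69, stayed between -0.97 and -0.54 under all alternatives run. That of Slc15a2 reversed to 0.48 without the ZT16 mice, which also moved Olfm2 to -0.36 and Aff3 to -0.24. The median r of all 21 pairs over 47 mice, 0.63, was 0.775 with the mean of all probe sets (without Gria1, which falls below the filter) and 0.391 with the first principal component within groups removed; without 1 mouse it was 0.597 to 0.67. Members called with Greb1 as covariate were 5, and 2 with the 60th percentile filter, where only Olfm2, Slco2a1 and Slc15a2 were left to be called. Of the 8 like genes 4 were lower: 0 without the ZT0 mice, 1 without ZT16, 2 without ZT20 and 2 to 4 without 1 mouse. The list genes past the threshold, 20, were 6 without the ZT0 mice, 11 without ZT8, 11 without ZT12 and 11 without ZT16.

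With the replicate number as a block (replicate block) the rhythm counts stayed at 1 and 1, the median averaged difference was -0.68 and the median r 0.668. The numbers do not pair the mice: of 23 same-numbered groups of deviations 1 had r above 0.1, from -0.193 to 0.114.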

Other observations

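Lists of other cell types were read for diet in limma. Of 3 tested Schwann cell markers 2 were higher on the high-fat diet, Mbp (0.36 ± 0.09, adjusted p = 0.00844) and Sox10 (0.17 ± 0.05, adjusted p = 0.0335). Of 6 smooth muscle and pericyte markers Notch3 was higher (0.19 ± 0.05, adjusted p = 0.00696) and Pdgfrb lower (-0.29 ± 0.08, adjusted p = 0.0204). Of 2 immune markers Cd68 was lower (-0.30 ± 0.09, adjusted p = 0.02), and of 2 adipocyte markers Lipe was higher (0.18 ± 0.04, adjusted p = 0.00566). Neither of the 2 erythroid markers, Hba-a1 (-0.32 ± 0.26) and Hba-a2 (-0.04 ± 0.03), nor the 1 tendon marker, Scx (-0.06 ± 0.07), passed. None of these markers was called with Greb1 as covariate.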
